A study of Mus musculus with 2 samples.

Results

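The genes described here are 32 direct targets and regulators of the transcription factor p53, listed by symbol and sorted by role into feedback, growth arrest, DNA repair, metabolism and apoptosis. Of these, 30 were matched to probe sets that name exactly 1 gene, and 26 of the 30 passed the filter on low signal, out of 10285 genes above the filter and 18193 genes in all. The remaining 2 members are not analysed here.

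The study transfected RAW264.7 cells with siRNA against *Flcn* or with scramble siRNA, to learn how loss of folliculin changes cells that can become osteoclasts. RAW264.7 is an established mouse macrophage line. The medium was renewed 24 hours after transfection and total RNA was taken 48 hours later, without RANKL being named for these samples in the labels. Each condition was measured on 1 Affymetrix Mouse Genome 430 2.0 array, so that no difference here has a replicate check, no p-value is given, and precision is limited by having only 2 arrays.

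p53 is held at a low level by the ubiquitin ligase Mdm2, and damage to DNA or a block in ribosome assembly releases it. It then switches on genes that stop the cell cycle, genes that repair DNA, genes that trigger death through mitochondria or death receptors, and genes such as *Mdm2* itself that shut the response down again. Several of these genes also answer to other inputs, for example *Gadd45a*, *Sesn2* and *Pmaip1* to the stress factor ATF4, and *Cdkn1a* to signals that make monocytes and macrophages stop dividing as they mature.

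The promoters were read first, because a p53 site is what most members have in common. p53 binds as a tetramer to a pair of similar decamers, and exact matches to the p53 consensus decamer were searched for. A decamer that departs from the consensus at any base was therefore not counted. Among the 24 members with a RefSeq promoter window (GRCm38.p6, 250 bases before to 50 bases after the start site, both strands searched), 11 held at least 1 such decamer, or 45.8%, while 9.55% of the 27025 genes with a window did (8.36% of all 32851 windows). *Cdkn1a* was the only member whose window held 2 decamers no more than 13 bases apart, an arrangement found in 0.0731% of all windows. The members were listed as p53 targets, so the share describes the list, and a match is neither a site shown to be bound nor a cause of any value below. The stretches of 6 members are printed, chosen after their values were seen. Of the 6 only *Gadd45a* had a log2 ratio below 0. *Sesn1*, also below 0 (-0.14), held a decamer too and is not printed. The stretches are given on the strand of the gene, 5' to 3', with the decamers in capitals: *Cdkn1a* at chr17:29090888-29090977 (plus strand), *Mdm2* at chr10:117710895-117710984 (minus), *Ccng1* at chr11:40755422-40755511 (minus), *Ei24* at chr9:36797295-36797384 (minus), *Polk* at chr13:96519369-96519437 (minus) and *Gadd45a* at chr6:67037398-67037487 (minus).
Cdkn1a: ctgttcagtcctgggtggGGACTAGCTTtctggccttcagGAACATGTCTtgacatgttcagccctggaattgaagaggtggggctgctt
Mdm2: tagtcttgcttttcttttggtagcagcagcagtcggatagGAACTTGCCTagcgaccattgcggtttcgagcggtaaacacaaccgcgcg
Ccng1: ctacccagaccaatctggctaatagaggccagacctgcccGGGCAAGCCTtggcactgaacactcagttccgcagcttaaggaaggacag
Ei24: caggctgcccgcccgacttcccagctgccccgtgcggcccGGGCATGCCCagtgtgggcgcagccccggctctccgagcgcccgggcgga
Polk: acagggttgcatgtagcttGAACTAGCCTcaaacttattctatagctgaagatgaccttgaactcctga
Gadd45a: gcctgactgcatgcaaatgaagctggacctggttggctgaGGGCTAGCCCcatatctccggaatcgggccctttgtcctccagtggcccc

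The 24 members had 31 windows, since a gene can have several annotated start sites, and positions are counted from the start site of the window that held the match. Which start site these cells use was not tested, and a window need not lie at the main one. In the *Cdkn1a* stretch the exact decamers lie at positions -73 to -64 and -51 to -42 from the start site of their window. The bases tgacatgttc that follow the second miss the consensus at their first base only, and so stay in lower case. The single decamer of *Ei24* ends at the base before the start site, and that of *Gadd45a* lies at -40 to -31. *Gadd45a*, the member with the lowest ratio, and *Ei24* and *Polk*, with ratios above 0, thus all held a decamer, while none was found in the windows of *Bbc3*, *Eda2r* and *Fas*. The E-box CACGTG, letters that Tfe3 and its relatives bind, stood in the windows of 6 of the 24 members and of 8.09% of the genes with a window. *Aen*, *Bbc3*, *Eda2r* and *Fas* were among the 6. The log2 ratios of *Aen*, *Bbc3* and *Fas* were 0.21, 0.01 and -0.40, and *Eda2r* was below the filter. Here too a match is not a site shown to be bound, and a link to Tfe3 was not tested.

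Values are linear array signals as the authors' software gave them. A ratio is the log2 of the signal with *Flcn* siRNA over that with scramble siRNA, a signal under the array's median (13.6 with *Flcn* siRNA, 12.8 with scramble siRNA) was first raised to it, and genes passed the filter when the geometric mean of both signals reached 13.2. A gene was counted as higher or lower only from the size of its ratio, with 1.5-fold as the limit. Where a gene had several probe sets, the one with the highest geometric mean signal stands for it. For members the other probe sets above the filter are given beside it, and for genes of related lists most are not given. The log2 ratios of different probe sets of 1 gene had a median SD of 0.19 over 5034 genes, which is a technical spread and no replicate error.

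*Flcn* itself had signals of 206.2 with *Flcn* siRNA and 240.9 with scramble siRNA at one probe set and 145.4 against 208.6 at another (log2 ratios -0.22 and -0.52), neither reaching 1.5-fold. *Gpnmb*, a target of Tfe3, was 8.50-fold higher, with 2500 against 294.3. All 8 macrophage markers passed the filter and summed to 21260 with *Flcn* siRNA and 21650 with scramble siRNA. The sum is carried by bright probe sets, and *Fcgr1*, a high-affinity Fc receptor among the 8, was 2.72-fold lower, with 380.1 against 1032.6 (-1.44) and 110.3 against 289.6 (-1.39) at its other probe set. Of the other cell types, 2 of 13 markers with a probe set passed, with signals of 0.3 to 18.5 and 0.2 to 18.3. In bulk RNA, fewer cells with a transcript and less of it per cell cannot be told apart.

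The p53 genes lay on both sides of 0. Of the 26 members above the filter, 16 had a log2 ratio above 0 and 10 below it, with a median of 0.083, against 51.7% above 0 and a median of 0.01 over all 10285 genes. With median scaling, in which the signals of an array are divided by their median, 13 of the 26 lay above 0 and their median was -0.0045, with -0.07 for all genes. *Phlda3*, *Ddb2*, *Polk* and *Tigar* were higher by 1.5-fold or more, 4 of 26, where 5.85% of all genes were. *Gadd45a* and *Rrm2b* were lower, 2 of 26, where 5.52% of all genes were. With counts this small, both shares are described beside the background and nothing particular to the list is read from them.

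**Figure D1:**
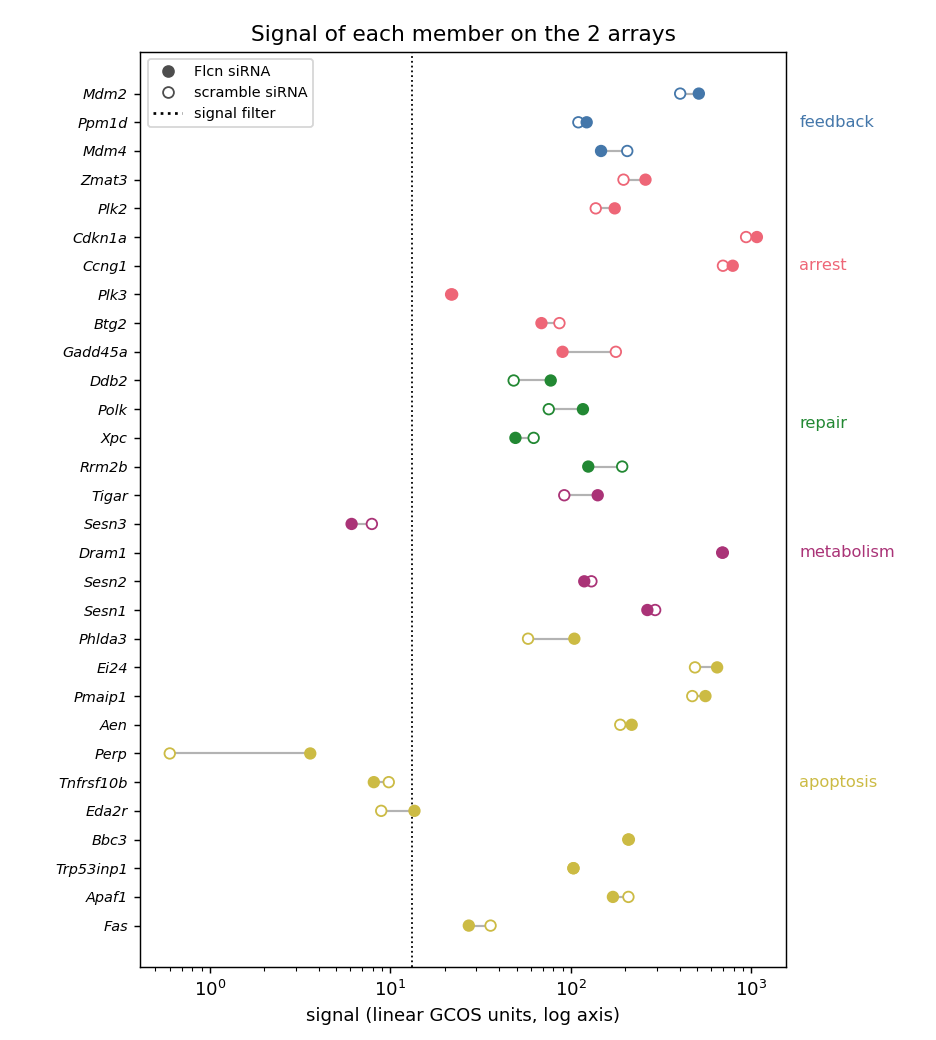
Signals of the 30 members with a probe set, on a log axis, with filled points for Flcn siRNA and open points for scramble siRNA, coloured by role; the dotted line is the signal filter of 13.2. The wide gaps above the filter are those of Gadd45a (89.9 against 177.4), Phlda3 (104.5 against 57.9), Ddb2, Polk, Tigar and Rrm2b, while the points of Plk3, Dram1, Bbc3 and Trp53inp1 nearly coincide.

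The feedback genes, which set how long p53 stays active, split. *Mdm2*, the ligase that marks p53 for destruction, had signals of 511.3 with *Flcn* siRNA and 403.0 with scramble siRNA, a log2 ratio of 0.34 at percentile 84.7 of all genes above the filter, and a further probe set gave 451.5 against 330.5 (0.45). *Ppm1d*, the phosphatase Wip1 that dephosphorylates p53 and its kinases, had 122.3 against 110.0 (0.15) and at its other probe set 112.3 against 96.8 (0.21). Both genes therefore lay above 0 at each probe set above the filter, short of 1.5-fold. *Mdm4*, the partner of Mdm2 that masks the activation domain of p53, had 146.9 with *Flcn* siRNA and 205.2 with scramble siRNA (-0.48). That probe set is of a kind that can hybridise with several transcripts, and the other 2 of *Mdm4* above the filter gave 68.6 against 70.6 (-0.04) and 13.9 against 15.5 (-0.16), so the size of its difference differs between probe sets.

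Among the 7 growth arrest genes, 4 lay above 0 and 3 below, with a median log2 ratio of 0.18, against 0.01 for all genes. With median scaling the median was 0.093, with -0.07 for all genes. *Gadd45a*, lower, was the 1 gene to pass 1.5-fold, where 5.85% of all genes were higher and 5.52% lower. *Cdkn1a*, which encodes the cyclin-dependent kinase inhibitor p21, had signals of 1072.0 with *Flcn* siRNA and 934.4 with scramble siRNA (0.20, percentile 73.1), and its other probe set gave 827.6 against 680.4 (0.28). This is close to the technical spread between probe sets, although both probe sets lay on the same side. *Ccng1*, a cyclin that recruits phosphatase 2A to Mdm2, had 787.9 against 695.4 (0.18), with 502.0 against 325.7 (0.62) and 359.7 against 299.1 (0.27) at its other probe sets, of which one passed 1.5-fold and the brightest did not. *Zmat3*, an RNA-binding zinc finger protein, had 258.9 against 195.6 (0.40). *Plk2*, a polo-like kinase of the stress response, had 174.9 against 137.3 (0.35).

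The other arrest genes lay below 0. *Gadd45a*, which binds PCNA and the mitotic kinase Cdk1 and activates stress kinases, had a signal of 89.9 with *Flcn* siRNA and 177.4 with scramble siRNA, 1.97-fold lower (log2 ratio -0.98) and at percentile 1.16 of all genes above the filter. It rests on 1 probe set. *Btg2*, an antiproliferative protein that recruits the deadenylase complex, had 68.7 against 86.4 (-0.33) and 40.3 against 45.9 (-0.19). *Plk3*, a further polo-like kinase, had 21.7 against 22.0 (-0.02), both close to the filter. The arrest genes thus had no shared direction.

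Of the 4 repair genes, 2 were higher and 1 lower, against 5.85% and 5.52% of all genes. With median scaling 1 was higher and 1 lower, and 0 were called either way when probe sets were averaged. *Ddb2*, which recognises ultraviolet lesions in chromatin, had 77.3 with *Flcn* siRNA and 48.2 with scramble siRNA, 1.60-fold higher (0.68), and its other probe set gave 51.9 against 37.2 (0.48). *Polk*, a polymerase that copies past bulky adducts, had 116.6 against 75.4, 1.55-fold higher (0.63), with 40.2 against 32.9 (0.29) at its other probe set. Both stayed above 0 at each probe set, but in neither did the dimmer probe set reach 1.5-fold. *Xpc*, which works beside Ddb2 in finding damaged bases, had 49.3 against 62.2 (-0.34), opposite in sign to *Ddb2*.

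*Rrm2b*, the p53-induced small subunit of ribonucleotide reductase that supplies deoxynucleotides outside S phase, had 124.8 with *Flcn* siRNA and 192.4 with scramble siRNA, 1.54-fold lower (-0.62). Its second probe set gave 66.8 against 113.5 (-0.76), and 2 dim probe sets close to the array medians gave 16.1 against 13.8 (0.22) and 13.8 against 14.7 (-0.09). The subunits used in dividing cells lay on the other side: *Rrm2*, the S-phase small subunit, had 1112.3 against 541.0 (1.04) and *Rrm1*, the large subunit shared by both forms, 931.6 against 468.3 (0.99). *Rrm2* was above 0 at each of its 3 probe sets above the filter, up to 657.5 against 218.7 (1.59).

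**Figure D2:**
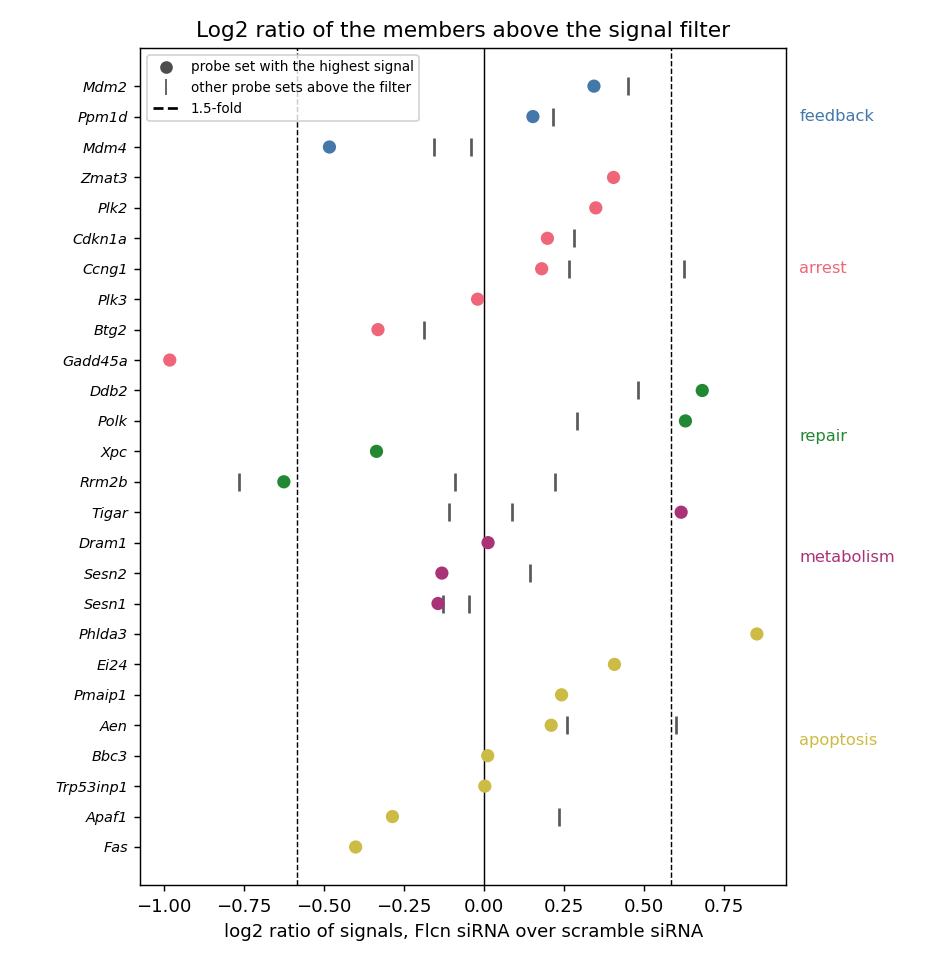
Log2 ratio, Flcn siRNA over scramble siRNA, of the 26 members above the signal filter, with a point for the probe set of highest signal and a tick for each other probe set above the filter, grouped by role; dashed lines mark 1.5-fold. Gadd45a lies lowest at -0.98 and Phlda3 highest at 0.85, and the ticks of Tigar, Rrm2b, Apaf1 and Sesn2 fall on both sides of 0 or apart from their points.

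The metabolism genes had a median of -0.06 over the 4 above the filter, against 0.01 for all genes. With median scaling the median was -0.15, with -0.07 for all genes, and with probe sets averaged it was 0.0094, so its sign depends on the setting. Of the 4, 1 was higher, where 5.85% of all genes were, and 0 were called with median scaling. *Tigar*, a fructose bisphosphatase that diverts sugar to the pentose phosphate pathway, had 140.8 with *Flcn* siRNA and 91.9 with scramble siRNA, 1.53-fold higher (0.62), but its other probe sets gave 95.3 against 102.7 (-0.11) and 37.2 against 35.0 (0.09). Its call therefore holds for 1 of 3 probe sets. *Sesn1* and *Sesn2*, sestrins that restrain mTORC1, had 265.2 against 292.9 (-0.14) and 118.6 against 129.9 (-0.13). The other probe sets of *Sesn1* gave 155.2 against 160.3 (-0.05) and 131.0 against 143.2 (-0.13), whereas *Sesn2* changed sign at its other probe set (119.6 against 108.3, 0.14). *Dram1*, a lysosomal membrane protein that promotes autophagy, had 694.6 against 688.4 (0.01), and *Sesn3* was below the filter on both arrays (6.1 against 7.9).

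The apoptosis genes had 8 members above the filter, 6 above 0 and 2 below, with a median of 0.11, and 4 above 0 with a median of 0.023 with median scaling. *Phlda3*, which blocks Akt at the membrane, had the highest ratio of all members, with 104.5 with *Flcn* siRNA and 57.9 with scramble siRNA, 1.81-fold higher (0.85, percentile 98.2), at its 1 probe set. *Ei24*, an endoplasmic reticulum protein first found as etoposide-induced, had 645.6 against 486.8 (0.41). *Pmaip1*, which encodes the BH3-only protein Noxa, had 556.2 against 470.2 (0.24). *Aen*, an apoptosis-enhancing nuclease, had 217.1 against 187.7 (0.21) and 97.8 against 81.7 (0.26), and a dim probe set gave 19.4 against 11.1, the last under its array's median.

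Of the remaining death genes, *Bbc3*, which encodes the BH3-only protein Puma, had 209.5 against 207.8 and *Trp53inp1*, a stress-induced autophagy and death factor, 103.4 against 103.2, ratios of 0.01 and 0.0028. *Apaf1*, the core of the apoptosome, had 170.9 against 208.3 (-0.29) at one probe set and 55.7 against 47.4 (0.23) at the other. *Fas*, the death receptor, had 27.2 against 35.9 (-0.40). *Perp*, *Tnfrsf10b* and *Eda2r*, a desmosome protein and 2 receptors of the TNF receptor family, were below the filter, with at most 13.6 with *Flcn* siRNA and 9.8 with scramble siRNA. No call was made on them.

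Probe sets of 1 member did not always share a sign. Of 59 probe sets of members, 47 passed the filter. Of the 14 members with at least 2 such probe sets, 10 had them all on the same side of 0, and the median SD between their log2 ratios was 0.20. The share of genes past 1.5-fold differed with signal. In the lowest tertile of all genes by signal, 11.3% were higher and 8.69% lower, in the middle tertile 4.23% and 4.20%, and in the highest tertile 2.04% and 3.68%. *Ddb2* and *Phlda3* lay in the lowest tertile, *Polk*, *Tigar*, *Gadd45a* and *Rrm2b* in the middle tertile, and no member in the highest tertile, *Mdm2*, *Cdkn1a*, *Ccng1* and *Ei24* among its 6, passed 1.5-fold.

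**Figure D3:**
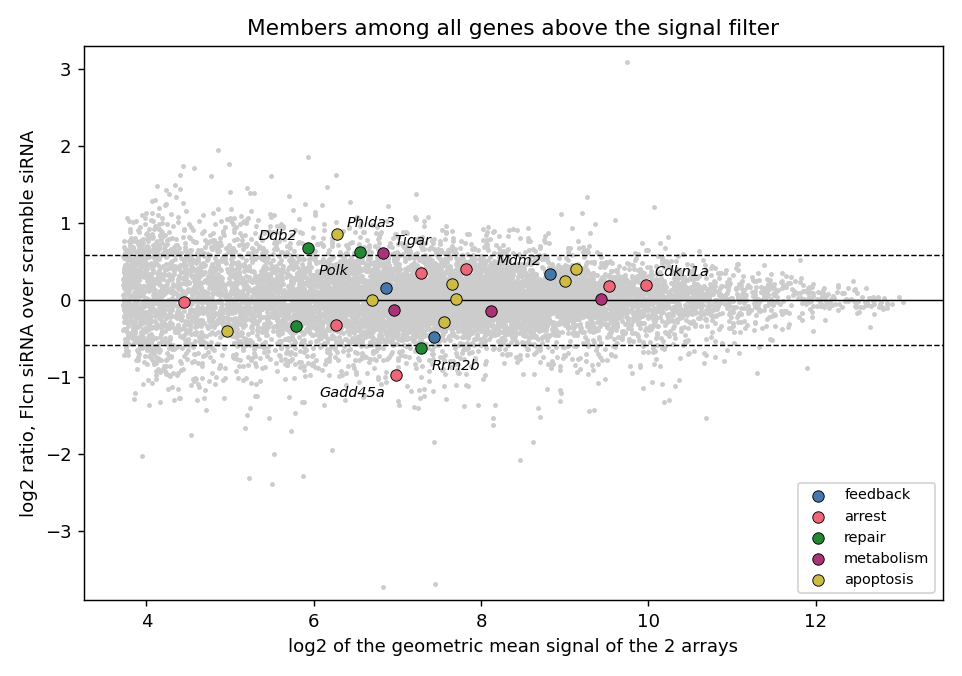
Log2 ratio, Flcn siRNA over scramble siRNA, against the log2 of the geometric mean signal, for all 10285 genes above the filter (grey) and the 26 members (coloured by role); dashed lines mark 1.5-fold. The 6 called members sit at low to middle signal, and the spread of all genes narrows as signal grows.

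Related gene lists were set beside the members. The p53 regulators, kinases and cofactors that switch p53 on or off, had 12 of 17 above 0 and a median of 0.07 (8 of 17 and -0.02 with median scaling). Of the 17, 1 was called higher, where 5.85% of all genes were. *Atr*, the kinase that responds to stalled forks, had 266.1 with *Flcn* siRNA and 155.8 with scramble siRNA (0.77), *Chek1*, the kinase below it, 188.0 against 129.2 (0.54) at a probe set that can hybridise with several transcripts, and *Atm*, the kinase that responds to double-strand breaks, 281.4 against 205.1 (0.46). The next probe sets of these 3 genes gave 45.4 against 31.8 (0.51) for *Atr*, 168.7 against 75.4 (1.16) for *Chek1* and 273.3 against 180.7 (0.60) for *Atm*, and a dim one of *Atr* gave 20.9 against 21.8 (-0.06). With probe sets unique to 1 transcript, 2 regulators were called higher, where 6.0% of all genes were. *Kat5* and *Ep300*, acetyltransferases of p53, and *Rchy1*, a ubiquitin ligase, were lowest at -0.25, -0.25 and -0.17. Other known p53 targets, 25 above the filter, had a median of 0.09 with 2 higher and 3 lower, where 5.85% and 5.52% of all genes were. *Ephx1*, an epoxide hydrolase (207.0 against 124.1), and *Pidd1*, a death domain protein (44.3 against 26.9), were highest at 0.74 and 0.72, and *Ak1*, an adenylate kinase, followed at 0.54. *Epha2*, an ephrin receptor, was at least 1.79-fold lower (11.9 against 24.3), *Tap1*, a peptide transporter, 1.71-fold lower and *Pml*, the nuclear body protein, 1.56-fold lower.

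The genes that p53 lowers through p21 and the DREAM repressor complex lay mostly above 0. Of 16 above the filter, 15 lay above 0 and 5 were higher, with a median of 0.47. Of all genes 5.85% were higher, and their median was 0.01. *Mybl2* (134.0 against 67.3, 0.99), *Mcm6* (852.4 against 465.7, 0.87) and *Mcm5* (1597.9 against 907.1, 0.82), a transcription factor and 2 subunits of the replicative helicase, were highest. *Cdc20*, an activator of the anaphase-promoting complex, was the 1 gene below 0 (-0.15), and *Plk1* and *Foxm1* were at 0.04 and 0.09. Across the scalings and probe set choices tried, 14 or 15 of the 16 lay above 0, with medians of 0.38 to 0.48. The list was therefore above 0 while *Cdkn1a* was also slightly above 0, and how these values relate was not tested.

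Of the 6 CDK inhibitors outside the members, 3 passed the filter: *Cdkn2c* with 283.7 against 197.4 (0.52), *Cdkn2d* with 429.9 against 413.2 (0.06) and *Cdkn1b* with 246.6 against 255.2 (-0.05). The other probe set of *Cdkn1b* gave 36.4 against 18.8 (0.95), and with the probe sets of a gene averaged the median of the 3 was 0.45, against 0.06. *Cdkn2a*, whose Arf product inhibits Mdm2, was below the filter with 2.1 against 1.0. Relatives of the members, 22 above the filter, had a median of 0.10, led by *Rrm2*, *Rrm1* and *Ccng2*, a cyclin G relative that FoxO factors induce (365.9 against 197.8, 0.89). *Trp53inp2*, *Gadd45g* and *Bcl2l11* were lowest at -0.55, -0.31 and -0.30, and the other 4 probe sets of *Bcl2l11* ranged from -0.09 to 0.76. The ATF4 list, 9 above the filter, had 6 below 0 and a median of -0.18. Of the 9, 2 were lower by 1.5-fold or more, where 5.52% of all genes were. In it *Ddit3*, the transcription factor Chop, had 1375.4 against 2289.8 and *Trib3*, a pseudokinase, 623.4 against 942.6, 1.67-fold and 1.51-fold lower, while *Ddit4*, an inhibitor of mTORC1 that also answers to p53, had 107.6 against 79.1 (0.44). *Chac1* (349.8 against 289.4, 0.27) and *Atf3* (724.9 against 624.4, 0.22) also lay above 0.

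**Figure D4:**
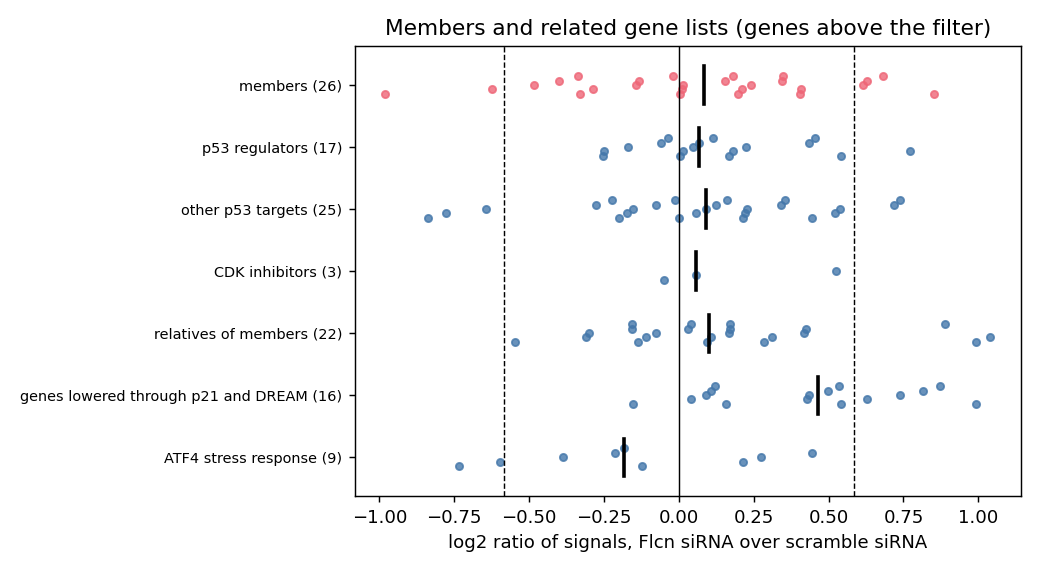
Log2 ratio, Flcn siRNA over scramble siRNA, of each gene above the signal filter in the members and 6 related lists, with the number of genes in brackets; thick bars mark the medians and dashed lines 1.5-fold. The genes lowered through p21 and DREAM have a median of 0.47 with 1 gene below 0, against 0.083 for the 26 members.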

How the data were processed

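RNA of RAW264.7 cells was hybridised to 2 arrays, 1 per condition. The values deposited by the authors, made with GCOS, are linear intensity values for each probe set. Scaling settings are not named in the sources used here, and the trimmed mean intensity, without 2% at each end, is 100 on both. Of 45101 probe sets, 34958 name 1 gene in the platform annotation, 34754 of these with a RefSeq entry. Members and lists were chosen with earlier results of these data known. All 32 members may be named, as may the 3 highest and 3 lowest measured genes of each related list, with *Flcn* and *Gpnmb* as checks; other genes named were chosen after their values were seen. Some genes, among them 2 members, are not analysed here.

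Signals were floored at each array's median and log2 ratios taken as described in the text, at the probe set of highest geometric mean signal. Other settings tried were division by the array median (median scaling), quantile normalization, averaging a gene's probe sets, taking the brightest on each array, probe sets unique to 1 transcript, other floors and other filters. A change of over 0.19 (the typical SD between probe sets) counted as a move for a gene, and that SD divided by the root of the number of genes for a list median. p53 decamers and CACGTG were searched on both strands of RefSeq promoter windows. The functions were tested on simulated data. Python 3.11.15 was used with pandas 2.3.3, numpy 2.4.6, matplotlib 3.10.9 and scipy 1.17.1.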

Additional observations from a re-analysis of the deposited data

How the results depend on the processing

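Most values of the members kept their size, but many of the alternatives could not change them. The probe set standing for each member above the filter lay above both array medians, so other floors and filters left its value as it was. Median scaling shifted all members by the same amount, under 0.19. The 12 members with 1 probe set above the filter could not change with the probe set choice. The count that follows is thus no measure of stability. Of 228 member values under the alternatives, 223 moved by less than 0.19, the median SD between probe sets, and 5 moved further: *Mdm4* (-0.23 with the mean of all probe sets, -0.04 with probe sets unique to 1 transcript), *Rrm2b* (-0.31), *Tigar* (0.20) and *Apaf1* (-0.03), the last 3 with the mean of all probe sets. The sign changed in 5 cases, in *Dram1*, *Bbc3*, *Trp53inp1* and *Sesn2*. The median of the members was -0.0045 with median scaling and 0.17 with a filter at the 75th percentile, against 0.083. That of the arrest genes was 0.093 and of the apoptosis genes 0.023 with median scaling. With the higher filter the median of the repair genes was 0.0022. Only *Rrm2b* (-0.62) and *Polk* (0.63) of that group then remained, so the value lies between 2 opposite ratios and does not mean no change. Median scaling lowered all log2 ratios, so that the median of all genes was -0.07 and 418 genes were higher and 807 lower, a share of higher calls of 34.1% against 51.5%. The members called higher were then 2 (*Ddb2* and *Phlda3*), they were 1 (*Phlda3*) with the mean of all probe sets, 2 (*Polk* and *Tigar*) with the higher filter and 3 with the highest probe set on each array, against 4. Those called lower were 1 (*Gadd45a*) when probe sets were averaged, and *Gadd45a* and *Rrm2b* in the other settings. Under median scaling the p53 regulators had a median of -0.02 and the other p53 targets 0.0021. No paired analysis was possible because each condition has 1 array and the labels give no replicate numbers. What sets these differences was not tested, and with 1 array per condition none has a replicate error.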
